A study of Mus musculus with 46 samples.

Results

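The miRNAs described here are mmu-miR-10a, mmu-miR-10b, mmu-miR-196a and mmu-miR-196b (written without the prefix from here on), the members of the miR-10 and miR-196 families that are encoded inside or beside the Hox gene clusters. They were chosen by name, with miR-196b added because the array carries it, and they are 4 of the 334 mouse miRNAs measured, with 4 spots each and 16 spots of 1336 in all. Hox genes encode the transcription factors that give cells their position along the body axis. The miRNAs of these loci are transcribed with the Hox genes around them and in turn repress Hox mRNAs, among them Hoxb8, which miR-196 cleaves, and, in human cells, HOXD10, which miR-10b represses. The miR-10 and miR-196 families are known for their regional expression in the trunk of the embryo and for their altered levels in breast and other cancers.

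Mature miRNAs were measured in total RNA of 41 primary tumors of the mammary gland, raised in 8 engineered mouse models, and of 5 normal mammary glands from pregnant FVB mice, with 1 custom array per tissue. Basal and luminal classes are those of the publication. The basal models were C3TAg (5 tumors, FVB, in which the C3(1) promoter drives the SV40 T antigens), p53-/- (7 tumors, Balb/C, grown as transplants from glands in which MMTV-cre removed floxed p53) and Brca1-/-p53+/- (5 tumors, 129B6/FVB, in which MMTV-cre removed floxed Brca1 in mice with a single working p53 allele). The luminal models carried an oncogene behind the MMTV promoter in FVB mice: MMTV-C-Myc (4 tumors), MMTV-H2N (5), MMTV-Hras (5), MMTV-PymT (6) and MMTV-Wnt (4). Tumors came from individual mice, and whether the 5 normal glands came from 5 different mice is not stated. The normal glands were all FVB, so strain, transplantation and model cannot be told apart for p53-/-, nor strain and model for Brca1-/-p53+/-. Pregnancy and the absence of a tumor likewise cannot be told apart in every comparison with normal gland, since no gland of a virgin mouse was analysed here. Pieces of tissue were measured, so fewer cells of a type and less RNA per cell cannot be told apart.

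The mature sequences show why the 4 miRNAs form 2 pairs. They are given 5′ to 3′ from RefSeq (build GRCm38.p6), with the seed, bases 2 to 8 from the 5′ end, in capitals. The names on the array carry no arm and were read as the 5p strand.
miR-10a: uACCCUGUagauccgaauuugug
miR-10b: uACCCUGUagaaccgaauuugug
miR-196a: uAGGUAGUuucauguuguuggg
miR-196b: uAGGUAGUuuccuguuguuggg
miR-99a: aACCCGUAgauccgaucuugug
miR-100: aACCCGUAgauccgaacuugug
Counted from the 5′ end, miR-10a and miR-10b differ by a single base, U12A, and are identical at the other 22 positions. The miR-196 pair also differs by a single base, A12C, and is identical at the other 21 positions. Both differences lie outside the seed, so each pair shares its seed, and the seeds of the miR-10 and miR-196 pairs differ. The miR-99a and miR-100 sequences are shown as relatives of miR-10 on the array: miR-10a and miR-100 share the run GUAGAUCCGAA (11 bases), which begins a base earlier in miR-100, and their seeds differ. A further relative on the array, miR-99b, is not shown. Each probe carried the full mature sequence, and how far a miRNA hybridised to the probe of its 1-base partner was not tested.

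The 4 Hox clusters each hold at least 1 of these genes. In GRCm38.p6 the mature miR-10a lies at chr11:96317186-96317208 on the plus strand, within the span of Hoxb3 and between Hoxb5 and Hoxb4. The mature miR-10b lies at chr2:74726074-74726096 on the plus strand, within the spans of Hoxd3 and Hoxd4. Identical miR-196a molecules come from 2 genes, at chr11:96265187-96265208 between Hoxb13 and Hoxb9 and at chr15:102973365-102973386 between Hoxc10 and Hoxc9, both on the plus strand, and the array cannot separate them. The mature miR-196b lies at chr6:52230129-52230150 on the minus strand, between Hoxa9 and Hoxa10. A further Hox-cluster miRNA on the array, miR-615, lies within Hoxc5.

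Signals are given as the geometric mean of the 4 spots of a miRNA in array units, and comparisons used the log2 signal minus the median log2 signal of the array. The floor of an array is the 5th percentile of its spots, and the limit above which a miRNA counted as measured was 3 times the floor. Arrays differed in range: of the 334 miRNAs, 31 to 85 were above the limit on the C3TAg arrays and 91 to 111 on the p53-/- arrays, where the floor itself was high, against up to 236 in normal gland. Array medians were 125 to 323 in C3TAg, 94.9 to 202.7 in p53-/- and 492 to 1735 in MMTV-Wnt, against 172 to 494 in normal gland, so the results were also computed under other scalings. Most miRNAs were not above the limit on the C3TAg and p53-/- arrays, so the array median there was itself not above it. On the arrays of every other group the array median was above the limit. Scaled values and bounds of C3TAg and p53-/- thus use a different kind of reference from those of normal gland.

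All 4 miRNAs were lower in the tumors than in normal gland, miR-10b most uniformly. The unweighted mean of the 8 models lay below normal gland by a log2 difference of -3.55 ± 0.35 (SE) for miR-10b, -3.03 ± 0.49 for miR-10a, -2.55 ± 0.43 for miR-196a and -2.39 ± 0.45 for miR-196b. These differences are 11.7-fold, 8.16-fold, 5.85-fold and 5.25-fold. The C3TAg arrays, and part of those of p53-/- and other models, enter these means with signals not above the limit. All 4 passed the two-sided limma test with Benjamini-Hochberg adjustment over 334 miRNAs (adjusted p = 3.1e-11, 2e-06, 3.8e-06 and 1.8e-05 in that order), beside 27.5% of all miRNAs that were called lower in this comparison. The median over all 334 miRNAs was a log2 difference of 0.20, with 92 miRNAs called lower and 37.7% called higher. Among these, miR-805 alone had a more negative difference than miR-10b. With the brightest miRNAs as the reference, 14.9% instead of 42.2% of all calls were lower calls, and the differences of the members were -2.40 for miR-10b, -1.88 for miR-10a, -1.40 for miR-196a and -1.25 for miR-196b, all still called lower.

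Of the 32 pairs of a member and a model, all had a negative difference and 30 were called lower. miR-10a, miR-10b and miR-196a were called lower in all 8 models and miR-196b in 6. These counts depended on the scaling: with the brightest miRNAs as reference 19 of the 32 pairs were called lower, 4 models for miR-10a, 8 for miR-10b, 4 for miR-196a and 3 for miR-196b. Of the 32 pairs, 15 kept their direction and their side of the threshold under every alternative run. The share of all 334 miRNAs called lower was 29.9% in C3TAg, 26.6% in p53-/-, 33.2% in Brca1-/-p53+/-, 21.3% in MMTV-C-Myc, 22.5% in MMTV-H2N, 11.7% in MMTV-Hras, 20.1% in MMTV-PymT and 29.0% in MMTV-Wnt.

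**Figure D1:**
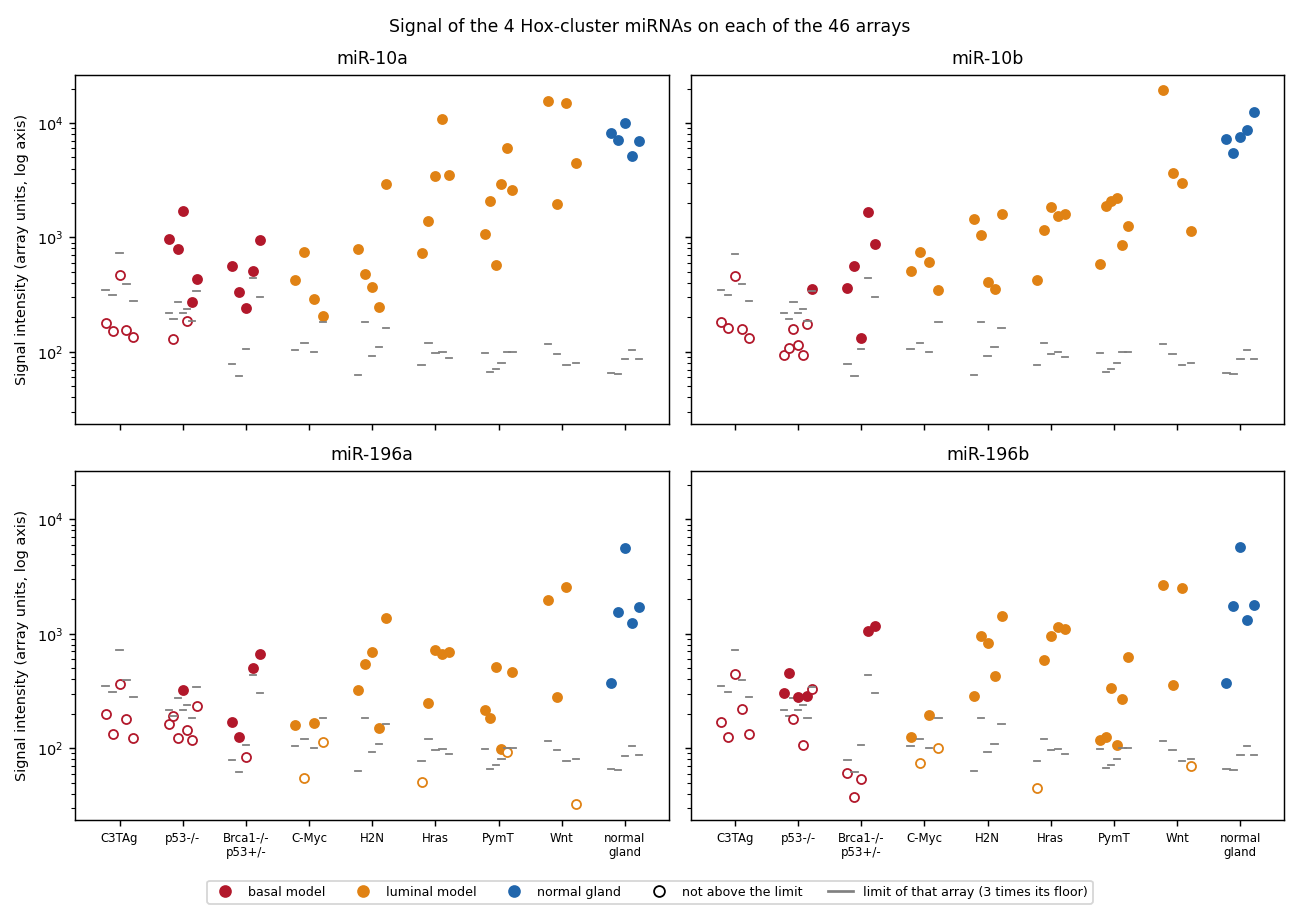
Signal of each miRNA on each array (geometric mean of 4 spots, array units, log axis) by group, with tumor models left of normal gland. Grey dashes are the limit of that array (3 times its floor), and open points did not exceed it. Before scaling, all miR-10b tumor points but 1, an MMTV-Wnt array at 19284, lie below those of normal gland (5457 to 12594).

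miR-10b, the HoxD member, separated the tissues most clearly. Its signal over the 41 tumors ran from 94.3 over a median of 590 to 19284, against 7213, 5457, 7592, 8746 and 12594 in normal gland. After scaling, none of the 41 tumors reached the lowest normal gland: the tumors ran from -0.16 over a median of 0.95 to 3.47 (log2 over the array median), against 4.18 to 5.39 in normal gland. Only 3 of the 334 miRNAs, or 0.898%, had all tumors below all normal glands. Without scaling a single tumor, the MMTV-Wnt array at 19284, lay above the lowest normal gland.

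In C3TAg tumors and most p53-/- tumors miR-10b was not above the limit. C3TAg tumors had miR-10b signals of 182, 162, 459, 159 and 132, none above the limit of its array, so only a bound can be given. With the array median as reference it was at least 10.8-fold lower than normal gland. In p53-/- tumors the lowest, median and highest miR-10b signals were 94.3, 115 and 357, and 1 of 7 arrays was above the limit. With the other 6 raised to the dimmest signal above it, the bound for p53-/- was at least 12.2-fold lower than normal gland. Neither bound holds under every scaling. Over the alternatives run, the difference was as small as -1.11 in C3TAg and -2.47 in p53-/-, with both calls kept. All signals of both models lay below those of normal gland, and both models were called lower (adjusted p = 2e-11 in C3TAg and 7.8e-12 in p53-/-). In Brca1-/-p53+/- tumors miR-10b signals of 359, 566, 132.9, 1679 and 870 were above the limit on all 5 arrays, with a log2 difference from normal gland of -3.80 ± 0.46 (adjusted p = 4.6e-09). Before scaling the spread there was more than 10 times from the lowest to the highest tumor, and the highest still lay below every normal gland. After scaling the values were 0.56, 2.62, -0.09, 0.89 and 0.31 in the same order. The highest was then the tumor at 566, where the 4 spots had an SD of 1.79 on the log2 scale.

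The luminal models kept a measurable miR-10b signal. It was 509, 745, 613 and 346 in MMTV-C-Myc tumors and 1444, 1060, 406, 352 and 1605 in MMTV-H2N tumors. MMTV-Hras tumors gave 426, 1160, 1830, 1537 and 1598. Every array of these 3 models was above the limit and below every normal gland. The lowest, median and highest of the MMTV-PymT tumors were 590, 1574 and 2189. MMTV-Wnt tumors gave 19284, 3637, 3016 and 1140, the first far from the others before scaling; its scaled value, 3.47, was the highest of all tumors. The log2 differences from normal gland lay between -3.46 ± 0.44 in MMTV-PymT (adjusted p = 3.6e-08) and -2.73 ± 0.49 in MMTV-Wnt (adjusted p = 1.9e-05), an 11-fold and a 6.62-fold decrease. Without any scaling the MMTV-Wnt difference was -1.02 and no longer called (adjusted p = 0.17).

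miR-10a, the HoxB member of the pair, had the larger spread within groups after scaling. Over the tumors it ran from 129 over a median of 735 to 15590, against signals of 8211, 7173, 9962, 5101 and 7000 in normal gland. The spread within groups, as the residual SD of the fit, was 1.10 on the log2 scale for miR-10a and 0.73 for miR-10b, beside a median of 0.77 over all miRNAs. Both spreads include signals not above the limit: miR-10a was above it on 34 of 41 tumor arrays and miR-10b on 30. After scaling, 2 of 41 tumors exceeded the lowest normal gland, 1 p53-/- tumor and 1 MMTV-Hras tumor.

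C3TAg tumors had miR-10a signals of 178, 152, 471, 155.3 and 135, none above the limit. With the array median as reference this bounds the decrease at 9.85-fold or more. In Brca1-/-p53+/- tumors the signals were 562, 335, 239.5, 513 and 953, and the log2 difference from normal gland was -3.84 ± 0.66 (adjusted p = 3.4e-06). Both models lay wholly below normal gland, and how many of all miRNAs did so in each of them was not counted. In p53-/- tumors, by contrast, miR-10a ran from 129 over a median of 437 to 1686 and was above the limit on 5 of 7 arrays, with a log2 difference of -2.55 ± 0.61 (adjusted p = 0.00026). With the other 2 arrays raised to the dimmest signal above the limit the bound was at least 5.32-fold lower. The p53-/- call was lost with a 75th percentile scaling (-1.24, adjusted p = 0.059), with the brightest miRNAs as reference (-0.67, adjusted p = 0.32) and with quantiles (-1.3, adjusted p = 0.066). The C3TAg call was lost with the brightest miRNAs as reference (-1.0, adjusted p = 0.17).

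Among the luminal models, miR-10a was lowest in MMTV-C-Myc tumors (422, 739, 292 and 207) and in MMTV-H2N tumors (800, 476, 371, 247 and 2916). These had log2 differences from normal gland of -3.60 ± 0.70 (adjusted p = 3.8e-05) and -3.38 ± 0.66 (adjusted p = 4.3e-05). The 4 spots of miR-10a disagreed on some tumor arrays, with an SD of 1.98 on the log2 scale on MMTV-C-Myc replicate 1, 2.11 on MMTV-H2N replicate 1 and 3.09 on MMTV-PymT replicate 3, against a median of 0.19 in normal gland. MMTV-PymT tumors ran from 572 over a median of 2347 to 6031, with a log2 difference of -2.76 ± 0.63 (adjusted p = 0.00049).

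MMTV-Hras and MMTV-Wnt tumors included arrays above every normal gland before scaling. The MMTV-Hras signals were 735, 1405, 3455, 10901 and 3536, the fourth above the normal glands, and the MMTV-Wnt signals were 15590, 1972, 14817 and 4458, with 2 above them. The scaled differences from normal gland were -1.97 ± 0.66 for MMTV-Hras (adjusted p = 0.026) and -1.83 ± 0.70 for MMTV-Wnt (adjusted p = 0.03). Both calls were fragile. Without scaling the MMTV-Wnt difference was -0.12 (adjusted p = 0.92) and that of MMTV-Hras was -1.45 (adjusted p = 0.16). With quantiles (-1.57, adjusted p = 0.15) or the brightest miRNAs as reference (-1.84, adjusted p = 0.057) the MMTV-Hras call was lost. The MMTV-Wnt call was lost with quantiles (-1.32), with the brightest miRNAs (-1.28) and with a 75th percentile scaling (-1.21). The MMTV-Hras call was also lost without MMTV-Hras replicate 1 (-1.74), 2 (-1.80) or 5 (-1.87) or normal gland replicate 1 (-1.71) or 2 (-1.92). That of MMTV-Wnt was also lost without MMTV-Wnt replicate 2 (-1.29) or normal gland replicate 1 (-1.57) or 2 (-1.78). Intensities carried only 3 significant digits on all 4 MMTV-Wnt, 2 of 5 MMTV-Hras and 1 of 4 MMTV-C-Myc arrays. No normal gland array did, so this and the model cannot be told apart for MMTV-Wnt. With these arrays as a block, both calls were lost: MMTV-Wnt -0.49 (adjusted p = 0.74) and MMTV-Hras -1.43 (adjusted p = 0.18).

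**Figure D2:**
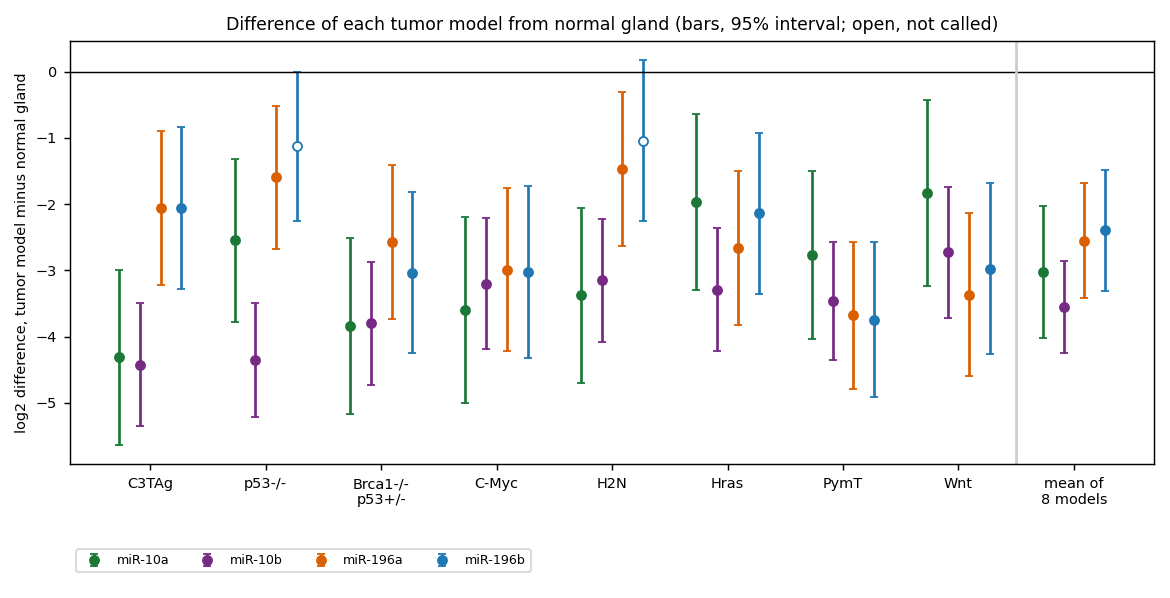
Log2 difference of each tumor model from normal gland for the 4 miRNAs, with the mean of the 8 models at the right. Points are limma estimates, bars are 95% intervals, and open points were not called: 30 of the 32 pairs of a miRNA and a model were called lower. The C3TAg points rest on signals not above the limit.

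The signal ratio of the miR-10 pair within an array varied between groups. In p53-/- tumors the log2 difference miR-10b minus miR-10a on the same array was negative on all 7 arrays, from -3.88 over a median of -0.98 to -0.26. On 6 of these arrays miR-10b was not above the limit, and on 2 miR-10a was not. MMTV-Hras tumors were also negative on all 5 arrays (-0.79, -0.28, -0.92, -2.83 and -1.15). MMTV-C-Myc tumors were at or above 0 on all 4 arrays (0.27, 0.01, 1.07 and 0.74). The MMTV-Wnt tumors split, with 0.31, 0.88, -2.30 and -1.97. In C3TAg tumors the difference was within 0.10 of 0 on every array, where neither signal was above the limit. In normal gland it was -0.19, -0.39, -0.39, 0.78 and 0.85, on either side of 0. Whether the change from normal gland differed between the 2 members was not tested, and the probes' levels were not set against each other.

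**Figure D3:**
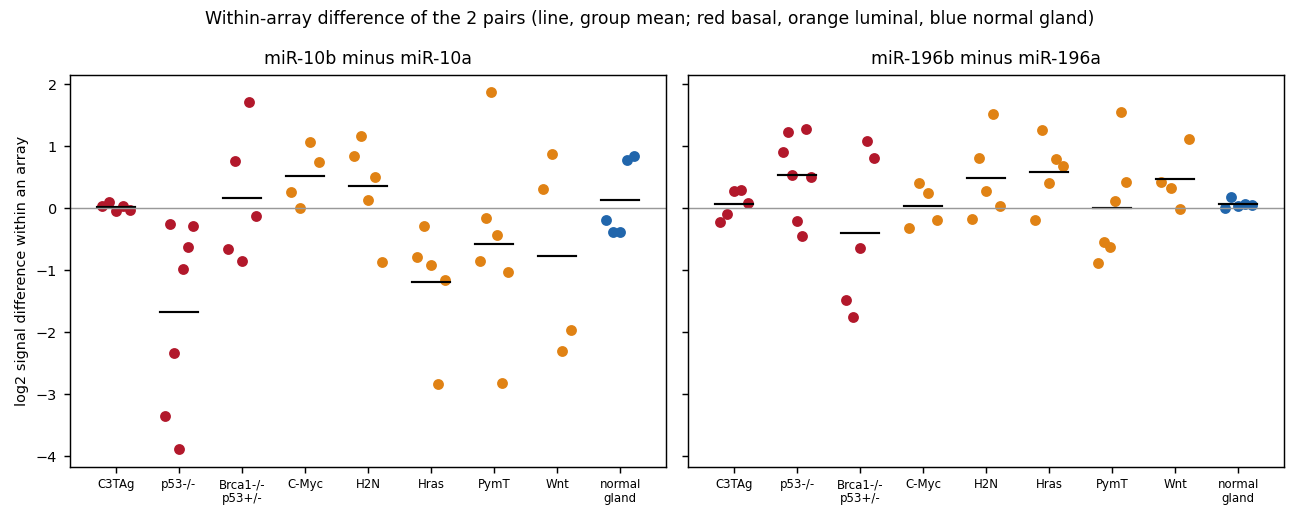
Log2 signal difference within an array for each pair of near-identical miRNAs, by group, with 1 point per array and a line at the group mean. The miR-10 pair spans -3.88 to 1.87 and the miR-196 pair -1.75 to 1.55, while the miR-196 pair of normal gland stays between 0 and 0.18. The -3.88 is from a p53-/- array with miR-10b not above the limit. The 1.87 is from an MMTV-PymT array where the miR-10a spots had an SD of 3.09. At each end of the miR-196 span a signal was not above the limit.

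miR-196a, encoded in HoxB and HoxC, varied widely in tumors and in normal gland. Its signal over the tumors ran from 32.3 over a median of 192 to 2542, against 370, 1554, 5611, 1241 and 1701 in normal gland. The first of these glands was the lowest and the third the highest, more than 10 times apart before scaling. The scaled mean of normal gland was 2.21 ± 0.99 (SD, n = 5), and 3 of 41 tumors exceeded the lowest normal gland. The order of the groups differed from that of the miR-10 pair.

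In 4 luminal models every tumor lay below the lowest normal gland in miR-196a after scaling. The same was so in Brca1-/-p53+/- and in C3TAg, the latter with signals not above the limit. The share of all miRNAs with such a separation in a single model was not counted. MMTV-PymT tumors ran from 92.1 to 515 around a geometric mean of 209.5, with a log2 difference from normal gland of -3.68 ± 0.55 (12.8-fold, adjusted p = 6.6e-07). MMTV-Wnt tumors gave 1974, 282, 2542 and 32.3, more than 50 times from the lowest to the highest before scaling. Their scaled difference from normal gland was -3.37 ± 0.61 (adjusted p = 2e-05). Of these, MMTV-PymT had 5 of 6 and MMTV-Wnt 3 of 4 arrays above the limit. MMTV-C-Myc tumors gave 158, 55.2, 166 and 114, with 2 of 4 above the limit, and MMTV-Hras tumors 50.6, 246, 717, 659 and 690, with 4 of 5 above it. Their differences were -2.99 ± 0.61 (adjusted p = 7.5e-05) and -2.66 ± 0.58 (adjusted p = 0.00061). Without scaling the MMTV-Wnt difference was -1.67 (adjusted p = 0.1) and that of MMTV-Hras was -2.14 (adjusted p = 0.067), neither called.

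MMTV-H2N tumors had miR-196a signals of 320, 549, 688, 149 and 1373, all above the limit, and 2 of the 5 exceeded the lowest normal gland after scaling. Their difference of -1.47 ± 0.58 (adjusted p = 0.03) was not called without MMTV-H2N replicate 2 (-1.31) or 4 (-1.24), or without normal gland replicate 2 (-1.39) or 3 (-1.09). Brca1-/-p53+/- tumors gave 170, 125.6, 82.9, 497 and 665, with 4 of 5 above the limit and a difference of -2.57 ± 0.58 (adjusted p = 0.00016). C3TAg tumors gave 197.5, 134, 364.9, 181 and 124, none above the limit, which bounds the decrease at 1.98-fold or more. p53-/- tumors ran from 118 over a median of 161 to 323, with 1 of 7 arrays above the limit, and were called lower (adjusted p = 0.0068), with a bound of at least 2.13-fold. With the brightest miRNAs as reference the C3TAg and p53-/- differences became 1.25 and 0.28, neither of them called, so the direction in these 2 models rests on the scaling. With a 75th percentile scaling the Brca1-/-p53+/- difference of -1.07 (adjusted p = 0.15) and that of MMTV-H2N, -0.77 (adjusted p = 0.32), were not called either.

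miR-196b, the HoxA member, closely followed miR-196a. Its signal over the tumors ran from 37.2 over a median of 284 to 2667, against 369, 1759, 5776, 1307 and 1776 in normal gland. The lowest and the highest of these glands were the same as for miR-196a, and there miR-196b minus miR-196a was 0.00, 0.18, 0.04, 0.07 and 0.06 on the log2 scale. Over the 46 arrays the 2 had a Pearson r of 0.88, and 0.75 after the group means were removed, while the miR-10 pair had 0.65 and 0.32. For deviations from the group means the median over all pairs of miRNAs was 0.06 and the 95th percentile 0.55. The arrays share labelling and hybridisation, and the part of probe sharing in these correlations was not tested.

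miR-196b was called lower in MMTV-PymT (-3.74 ± 0.58, adjusted p = 1.2e-06), Brca1-/-p53+/- (-3.03 ± 0.61, adjusted p = 3.5e-05), MMTV-C-Myc (-3.02 ± 0.64, adjusted p = 0.00012), MMTV-Wnt (-2.98 ± 0.64, adjusted p = 0.00022) and MMTV-Hras (-2.14 ± 0.61, adjusted p = 0.0081). It was above the limit on 6 of 6 MMTV-PymT, 2 of 4 MMTV-C-Myc, 3 of 4 MMTV-Wnt and 4 of 5 MMTV-Hras arrays. In C3TAg, where none of the arrays was above the limit, the bound was 2.08-fold or more. The MMTV-Hras tumors gave 44.4, 592, 954, 1143 and 1109, and without the first of them the call was lost (-1.5, adjusted p = 0.07). Before scaling, Brca1-/-p53+/- tumors fell into very different levels, 61, 37.2, 53.3, 1055 and 1166, with only the last 2 above the limit. Array medians in this model ran from 92.3 to 906.6. After scaling the values were -2, -1.31, -1.41, 0.22 and 0.74 in the same order (log2 over the array median).

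The p53-/- and MMTV-H2N models did not pass the test for miR-196b. In p53-/- tumors it ran from 106 over a median of 285 to 450, and the log2 difference from normal gland was -1.13 (95% interval -2.25 to 0.00, adjusted p = 0.067). In MMTV-H2N tumors it was 284, 962, 837, 428 and 1416, with a difference of -1.04 (95% interval -2.26 to 0.18, adjusted p = 0.14). After scaling 4 of 7 p53-/- and 2 of 5 MMTV-H2N tumors exceeded the lowest normal gland. The p53-/- difference was called without MMTV-Hras replicate 1 (-1.13, adjusted p = 0.043), p53-/- replicate 2 (-1.29, adjusted p = 0.043) or normal gland replicate 1 (-1.42, adjusted p = 0.031). It was also called without scaling (-2.6, adjusted p = 0.0056), after floor subtraction without scaling (-2.87, adjusted p = 0.0014), with array weights (-1.32, adjusted p = 0.0028), with spot 4 alone (-1.49, adjusted p = 0.019) and in a fit of its 2 groups alone (-1.13, adjusted p = 0.029). The MMTV-H2N difference was called with array weights (-1.11, adjusted p = 0.034) and in a fit of its 2 groups alone (-1.04, adjusted p = 0.045). Of the 7 p53-/- arrays, 4 were above the limit. With the brightest miRNAs as reference the p53-/- difference was 0.75 and that of C3TAg 1.25, neither called, and the Brca1-/-p53+/- (-0.9) and MMTV-Hras (-2.01) calls were lost. Without scaling the MMTV-Hras (-1.62) and MMTV-Wnt (-1.27) calls were lost. They were also lost with the arrays of 3 digits as a block (MMTV-Hras -1.64, adjusted p = 0.083, and MMTV-Wnt -1.72, adjusted p = 0.14).

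Group means of C3TAg for all 4 miRNAs, and of p53-/- for miR-10b and miR-196a (1 of 7 arrays above the limit), are means of signals mostly or wholly not above the limit, so their place in the following order is not set. Ordered by scaled mean from low to high, miR-10a ran from C3TAg (0.21) through Brca1-/-p53+/- (0.69), MMTV-C-Myc (0.93), MMTV-H2N (1.15), MMTV-PymT (1.77), p53-/- (1.98), MMTV-Hras (2.56) and MMTV-Wnt (2.70) to normal gland (4.53). For miR-10b the order was C3TAg (0.23), p53-/- (0.31), Brca1-/-p53+/- (0.86), MMTV-PymT (1.2), MMTV-Hras (1.37), MMTV-C-Myc (1.46), MMTV-H2N (1.51), MMTV-Wnt (1.93) and normal gland (4.66). For miR-196a the order was MMTV-PymT (-1.47), MMTV-Wnt (-1.16), MMTV-C-Myc (-0.78), MMTV-Hras (-0.45), Brca1-/-p53+/- (-0.36), C3TAg (0.15), p53-/- (0.62), MMTV-H2N (0.74) and normal gland (2.21). For miR-196b it was MMTV-PymT (-1.46), Brca1-/-p53+/- (-0.75), MMTV-C-Myc (-0.74), MMTV-Wnt (-0.69), MMTV-Hras (0.14), C3TAg (0.22), p53-/- (1.16), MMTV-H2N (1.24) and normal gland (2.28). The last step, from the highest model up to normal gland, had a 95% interval above 0 for miR-10a (1.83, 0.42 to 3.23), miR-10b (2.73, 1.74 to 3.72) and miR-196a (1.47, 0.31 to 2.63). For miR-196b the interval held 0 (1.04, -0.18 to 2.26), as did that of every step between neighbouring models for all 4 miRNAs.

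Basal against luminal models gave opposite signs for the 2 families, but the sign depended on the scaling. With the array median as reference, miR-10a (-0.86 ± 0.33, adjusted p = 0.017) and miR-10b (-1.03 ± 0.24, adjusted p = 0.00012) were called lower in basal models, where 33.2% of all miRNAs were. miR-196a was called higher (0.76 ± 0.29, adjusted p = 0.017), where 46.7% of all were, and miR-196b was not called (0.51 ± 0.31, adjusted p = 0.12). Both miR-196a and miR-10b were above the limit on no C3TAg array and on 1 of 7 p53-/- arrays. Their basal means thus rest largely on signals not above it. With the brightest miRNAs as reference all 4 were higher in basal models, miR-10a by 1.21 (adjusted p = 0.0015) and miR-10b by 1.04 (adjusted p = 8.2e-05), and without scaling all 4 were lower, miR-196a by a difference of -0.54 and miR-196b by -0.78. Between these settings the median of all 334 miRNAs moved to 2.55 with the brightest miRNAs as reference and to -0.81 without scaling, against 0.48 with the array median. Without the C3TAg and p53-/- arrays none of the 4 was called (miR-10a -1.13, miR-10b -0.64, miR-196a 0.26, miR-196b -0.45).

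miR-615, the remaining Hox-cluster miRNA of the array, went the opposite way. Its signal in MMTV-C-Myc tumors was 4582, 31868, 18216 and 43845, against 113, 107, 170, 110 and 186 in normal gland. All 41 tumors lay above all 5 normal glands after scaling, as was so for 2 of the 334 miRNAs (0.599%), and before scaling 36 of 41 did. On 4 of 5 C3TAg arrays and 2 of 7 p53-/- arrays miR-615 was not above the limit. Those C3TAg arrays were at 1.02 to 1.67 times their floor, against 3.18 to 6.43 times in normal gland. The scaled order of C3TAg against normal gland is therefore not set. The log2 difference from normal gland was 7.83 ± 0.68 in MMTV-C-Myc (adjusted p = 1.2e-12), and it was called higher in 6 of the 8 models, C3TAg among them. The share of all 334 miRNAs called higher was 43.7% in C3TAg, 47.3% in p53-/-, 36.8% in Brca1-/-p53+/-, 40.4% in MMTV-C-Myc, 28.7% in MMTV-H2N, 6.89% in MMTV-Hras, 15.9% in MMTV-PymT and 17.1% in MMTV-Wnt. In the 2 models without a call the differences were 1.70 in MMTV-Hras (adjusted p = 0.056) and 1.48 in MMTV-Wnt (adjusted p = 0.071). Of the 5 Hox-cluster miRNAs, 4 were thus lower and 1 higher in the mean of the models, with a median difference of -2.55 beside 0.20 for all miRNAs. Levels of miR-615 in MMTV-C-Myc and of the lowered members are on different probes and were not compared.

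miR-99a and miR-100, the relatives of miR-10 outside the Hox clusters, were not called in MMTV-Hras and MMTV-Wnt, where miR-10b was. In MMTV-Hras tumors miR-99a was 8508, 11669, 17211, 11024 and 10849, against 6429, 6162, 10400, 7499 and 13516 in normal gland, a log2 difference of -0.06 (95% interval -1.08 to 0.96). The corresponding difference of miR-100 was 0.07 (95% interval -0.95 to 1.09), while that of miR-10b in the same tumors was -3.29 ± 0.46 (adjusted p = 1e-06). In MMTV-Wnt tumors neither miR-99a (-0.87, adjusted p = 0.18) nor miR-100 (-0.65, adjusted p = 0.31) was called. In MMTV-H2N and MMTV-PymT tumors miR-99a was called lower (-2.71, adjusted p = 2.6e-05, and -1.73, adjusted p = 0.0039) and miR-100 was not (-0.68, adjusted p = 0.24, and -0.75, adjusted p = 0.22). Both were called lower in C3TAg, p53-/-, Brca1-/-p53+/- and MMTV-C-Myc. There miR-99a was above the limit on 3 of 5 C3TAg arrays, which bounds its decrease at 9.25-fold or more, and its differences were -2.13 in p53-/-, -3.74 in Brca1-/-p53+/- and -2.90 in MMTV-C-Myc. For miR-100, above the limit on no C3TAg array and 3 of 7 p53-/- arrays, the bounds were 6.73-fold and 6.63-fold or more, and the differences were -2.56 in Brca1-/-p53+/- and -1.73 in MMTV-C-Myc. The third relative, miR-99b, was called in no model, with differences between -0.33 and 1.25. Whether the change of miR-10b and of these relatives differs was not tested.

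**Figure D4:**
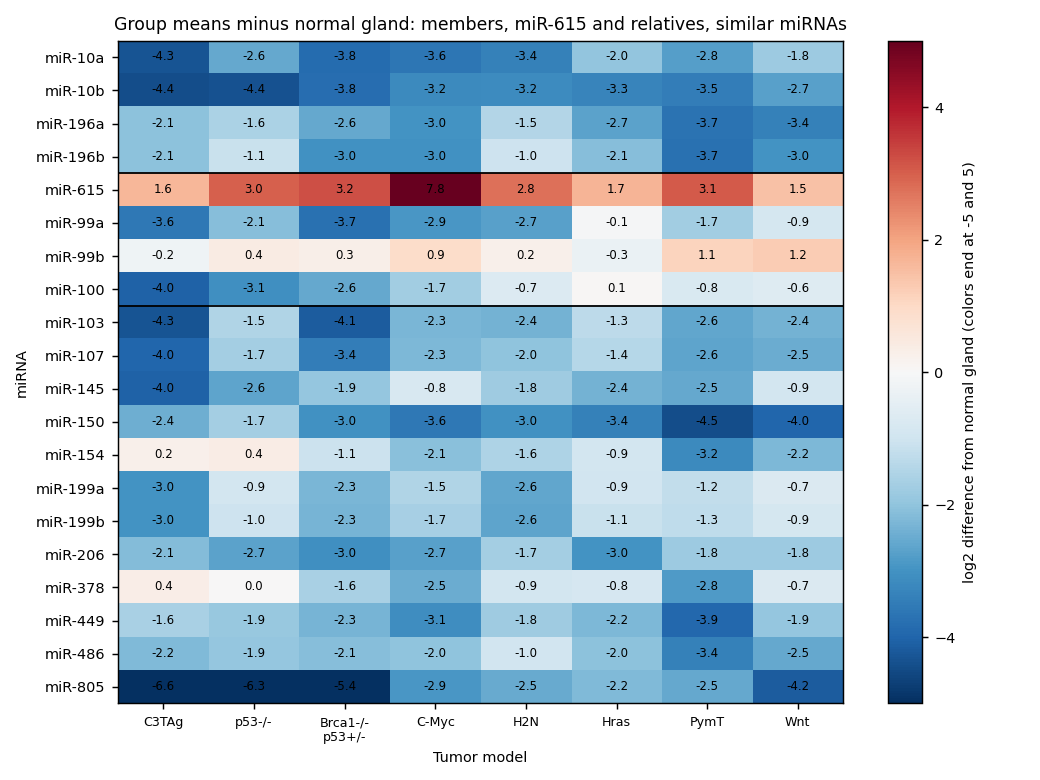
Mean log2 level of each of the 8 tumor models minus normal gland, for the 4 members (top block), miR-615 and the miR-10 relatives (middle block) and the miRNAs with the most similar pattern over the 9 groups (bottom block). Blue is lower and red higher than normal gland. The 4 members are blue in every model (in C3TAg from signals not above the limit). The row of miR-615 is red in every one, up to 7.83 in MMTV-C-Myc, but in C3TAg mostly from signals not above the limit.

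The miRNAs whose group means most resembled each member were sought among those above the limit on at least 50% of arrays, 204 candidates for each. Likeness was the Pearson r over the 9 group means, of which that of C3TAg rests on member signals not above the limit. For miR-10a they were miR-199b (0.92), miR-99a (0.92), miR-199a (0.91), miR-103 (0.88) and miR-107 (0.87). For miR-10b they were miR-10a (0.83), miR-805 (0.83), miR-206 (0.83), miR-145 (0.81) and miR-107 (0.77). Those of miR-196a were miR-196b (0.96), miR-150 (0.95), miR-486 (0.93), miR-449 (0.88) and miR-154 (0.74). Those of miR-196b were miR-196a (0.96), miR-486 (0.90), miR-150 (0.88), miR-449 (0.87) and miR-378 (0.74). The lists hold markers of stroma (miR-199a, miR-199b, miR-145), of skeletal muscle (miR-206), of leukocytes (miR-150), of red cells (miR-486) and of fat (miR-378). Other measured markers of these types were not in them: miR-143, miR-214, miR-1, miR-133b, miR-142-5p, miR-155, miR-223, miR-144, miR-451, miR-193 and miR-365. Of these, miR-214 (0.08), miR-155 (0.13) and miR-142-5p (0.96) had positive differences from normal gland in the mean of the models, and the others negative ones.

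Many markers of other cell types were also called lower in the mean of the models, where 27.5% of all miRNAs were, but not in every model. In the mean of the models 4 of 5 measured stroma and smooth muscle markers were lower (median log2 difference -1.73), as were 2 of 4 leukocyte markers, 2 of 3 red cell markers, all 3 skeletal muscle markers and all 3 fat markers. The single endothelial marker measured was above the limit on no array of normal gland, C3TAg, p53-/- or MMTV-Hras, so it gives no direction. Of the epithelial markers, 2 of 5 (miR-200a and miR-200b) and both basal epithelial markers were lower. By model, all 5 stroma markers were called lower in C3TAg and in p53-/-, though 2 were above the limit on no C3TAg array and 1 on no p53-/- array. Of the leukocyte markers, 2 were above it on no array of either model, as were 2 of the fat markers. Of the red cell markers, 2 were above it on no C3TAg array and 1 on no p53-/- array. In MMTV-Wnt 0 of 5 stroma markers were, but all 3 red cell markers were. In MMTV-H2N 3 of 5 stroma markers were called lower and 1 higher, and 0 of 3 red cell and 0 of 3 fat markers were called lower. The summed stroma level, in multiples of the array median, was 9.64 to 26.5 in C3TAg, 30.1 to 94.4 in p53-/-, 22.3 to 296 in Brca1-/-p53+/-, 111 to 208 in MMTV-C-Myc, 42.7 to 124 in MMTV-H2N, 43.9 to 71.6 in MMTV-Hras, 43.1 to 94.3 in MMTV-PymT and 82.5 to 609 in MMTV-Wnt, against 188 to 298 in normal gland. Summed leukocyte markers ran from 5.55 on a C3TAg array to 79.5 on an MMTV-Wnt array, against 27.6 to 66.9 in normal gland. Summed red cell markers ran from 3.34 in C3TAg to 1160 in MMTV-C-Myc, against 277 to 595 in normal gland, and fat markers from 2.62 in p53-/- to 153 in MMTV-H2N, against 28.4 to 130. The sums in C3TAg and p53-/- include markers that were above the limit on no array of the model. Of the 5 epithelial markers, none was above the limit on every C3TAg or Brca1-/-p53+/- array, 2 were on no C3TAg array, and 4 were on every p53-/- array, against all 5 on every array of the luminal models and of normal gland. The part of these cell types in the members' decreases was not tested.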

How the data were processed

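Total RNA was labelled with Hy3 and hybridised to a custom Agilent array of 60-mer probes by the authors, with 1 array per tissue. The deposited raw table holds the processed spot intensity from Feature Extraction, in array units, and was used for all values. The deposited series table holds log2 values after a global median normalization by the authors; it equalled the log2 intensity minus the array median plus a constant, within 1e-08. One column of values with no matching sample (1 in all) was not used, nor were detection calls.

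The log2 intensity minus the array median was averaged over the 4 spots. limma 3.58.1 (lmFit and eBayes, R 4.3.3) fitted 1 mean per group on 46 arrays, with a threshold of 0.05 on the adjusted p. The fit was tested on simulated data. The floor (5th percentile of the spots) and the limit (3 times the floor) were chosen with these data known. A bound compares normal gland with the higher of the measured signal and the dimmest signal above the limit. Each bound is given with the array median as reference and need not hold under other scalings. On the C3TAg and p53-/- arrays that reference was itself not above the limit. Alternatives covered scaling, floor, filters, spots, weights, strain, blocks and left-out arrays. Named miRNAs were the members, miR-615, the miR-99 and miR-100 relatives and the 5 most similar miRNAs of each member. Members and lists were chosen with earlier results of these data known, and the study itself named miR-10b from these samples, so neither is independent evidence. Markers miR-199a*, miR-142-3p, miR-126-3p and miR-133a were not analysed here. The number of arrays limits the precision.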

Additional observations from a re-analysis of the deposited data

Results flagged for a closer look

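Of 36 groups of arrays examined, 1 per miRNA and group, 4 held an array far from the others, where chance gives about 1 in 20. Values are log2 over the array median. miR-10a of MMTV-Wnt replicate 2 was 1.09, against 3.17 to 3.36 on the other 3 arrays of that model. miR-10b of MMTV-H2N replicate 1 was 3.36, against 0.80 to 1.25 on the other 4. miR-196b of MMTV-Hras replicate 1 was -2.41, against 0.48 to 1.07 on the other 4. miR-10a of C3TAg replicate 3 was 0.54, against 0.07 to 0.19 on the other 4, none of the 5 above 3 times the floor of its array.

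The changes of the basal and luminal models differed by the test of their difference (limma) for miR-10a (-0.86), miR-10b (-1.03) and miR-196a (0.76). The dependence on scaling and on signals not above the limit is given with that comparison.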

How the results depend on the processing

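The difference of the mean of the 8 models from normal gland kept its direction and its call for all 4 miRNAs under every alternative run. With 1 array left out it ran from -3.2 to -2.77 for miR-10a, -3.67 to -3.37 for miR-10b, -2.83 to -2.17 for miR-196a and -2.69 to -2.02 for miR-196b. Arrays that share a replicate number did not deviate together (mean r of 0.028, against -0.006 for other arrays), so no pairing was assumed, and with the replicate number as a block the values were -3.0, -3.59, -2.56 and -2.42. Leaving out the C3TAg and p53-/- arrays was chosen after seeing the data.

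Basal minus luminal depended most on the scaling, and the cause was not tested. The array median was not above the limit on the C3TAg and p53-/- arrays and was above it on the luminal arrays. For miR-10a it was 0.51 with the 75th percentile, 1.21 with the brightest miRNAs as reference, 0.71 after floor subtraction with 90th percentile scaling, -0.18 with quantiles, -0.43 with spot 4 alone and -1.13 without the C3TAg and p53-/- arrays. For miR-10b the values were 0.34, 1.04 and 0.51 under the first 3 of these settings and -0.64 without those arrays. For miR-196a it was -0.54 without scaling, -1.04 after floor subtraction without scaling, 0.46 with quantiles, 0.6 with the median of the spots, 0.73, 0.45 and 0.57 with spots 2, 3 and 4, 0.78 in FVB groups, 0.4 with the arrays of 3 digits as a block and 0.26 without those arrays. For miR-196b it was 1.88, 2.58 and 2.09 under the first 3 settings, 0.62 after floor subtraction with median scaling, -0.78 without scaling, -1.14 after floor subtraction without scaling and -0.45 without those arrays.

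Against normal gland, miR-196a turned positive in C3TAg (0.11 with the 75th percentile, 1.25 with the brightest miRNAs, 0.17 after floor subtraction with 90th percentile scaling) and in p53-/- (0.28 with the brightest). In the same 3 settings miR-196b was 0.11, 1.25 and 0.24 in C3TAg and 0.19, 0.75 and 0.04 in p53-/-. The number of models in which a miRNA was called lower fell to 4 with the brightest miRNAs and 5 with quantiles or the 90th percentile for miR-10a. For miR-196a it fell to 4 with the 75th percentile, the brightest or the 90th percentile and 5 without scaling, with or without floor subtraction. For miR-196b it fell to 3 with the brightest or the 90th percentile.

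Counts of miRNAs called lower, with 75th percentile scaling and with the brightest as reference, were 47 and 36 for the mean of the models, 52 and 32 for C3TAg, 47 and 32 for p53-/-, 43 and 26 for Brca1-/-p53+/-, 41 and 49 for MMTV-H2N, 50 and 52 for MMTV-Wnt and 59 and 41 for basal minus luminal. With 90th percentile scaling after floor subtraction they were 45 for the mean, 46 for C3TAg, 47 for p53-/-, 29 for Brca1-/-p53+/- and 50 for basal minus luminal. With quantiles they were 58 for the mean, 70 for Brca1-/-p53+/-, 48 for MMTV-H2N, 18 for MMTV-Hras, 41 for MMTV-PymT and 34 for MMTV-Wnt. Unscaled counts were 136 for p53-/-, 14 for MMTV-Hras, 25 for MMTV-PymT, 8 for MMTV-Wnt and 172 for basal minus luminal, and after floor subtraction 163 for C3TAg, 152 for p53-/-, 14 for MMTV-Hras, 26 for MMTV-PymT, 8 for MMTV-Wnt and 212 for basal minus luminal. The filter on mean signal gave 19 for MMTV-Hras, 35 for MMTV-PymT and 48 for MMTV-Wnt, and the floor filter 42 for MMTV-PymT and 55 for MMTV-Wnt. Array weights gave 59 for MMTV-Hras and 120 for MMTV-PymT, and pooled tumors 38 for the mean. The share of lower calls for the mean was 42.2%, against 20.5% with the 75th percentile, 14.9% with the brightest, 63% after unscaled floor subtraction and 78.9% and 72.6% with the filters.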
